A study of Homo sapiens with 9 samples.

Results

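The subject is a set of 90 transcription start sites whose nascent RNA was induced 3 h after UV-C in every line studied and, at 16 h, was still induced in cells without STK19 but not in wild-type cells. They were 90 of 2895 identifiers with a mean 3 h signal of at least 2, and of 7936 identifiers present in all 9 libraries. The level of an identifier was the mean deposited signal per 200-bp bin over the 10 kb downstream of its start, and a change was the difference of log2(level + 0.5) from the mock library of the same line. An identifier was taken when its 3 h change was 0.8 or more in all 3 lines, its 16 h change was under 0.5 in WT and its 16 h change was 1 or more in the knockout. The members were thus chosen by their signal at mock and 3 h in all 3 lines and at 16 h in WT and the knockout, and those values are given as a description only. The rescue library at 16 h had no part in the choice.

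The study asked what STK19 does for the recovery of transcription after UV. Its 3 lines were made in RPE1 iCas9 p53/puro-dKO cells and are labelled WT, STK19-KO, and STK19-KO+STK19-TY for the knockout given an STK19-TY transgene. They are called WT, KO and rescue here. RPE1 is a human retinal pigment epithelium line. All 3 lines carry the iCas9 and p53/puro-dKO background, so the WT control is not wild type for p53. Cells of each line were mock-treated or given UV-C at 12 J/m2 and sampled 3 h or 16 h later, with newly made RNA labelled by 2 mM bromouridine (BrU) for 30 min, isolated by an anti-BrdU pulldown, then sequenced. One label field starts this labelling at 2.5 h and 15.5 h, another at 3 h and 16 h. The sources used here do not say whether a line is a single clone or what drives the transgene.

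As background, UV-C makes bulky lesions in DNA that stop RNA polymerase II in the transcribed strand. Transcription-coupled repair recognises the stopped polymerase and removes the lesion, and STK19 is a factor of this pathway. Because a labelling pulse captures RNA made in a short time, BrU-seq reads transcription itself rather than the amount of stored RNA, and UV typically removes signal far from a start while sparing or raising it near the start.

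There was 1 library per line and condition, so no difference between libraries has a replicate check and none was tested. The deposited signal is scaled to similar totals, so a level is relative within its library, and a loss or gain of all transcription cannot be seen. In bulk cultures, fewer responding cells and less RNA per cell cannot be told apart. The deepest library was WT at 16 h, whose values moved in steps of 0.373, and the shallowest was KO at 3 h, with steps of 4.88 and a depth 13.1 times lower. In 80 of the 90 identifiers, every library held at least 50 steps of signal over the 10 kb. The identifiers are UCSC gene models, and 0 of the 7936 matched the reference table at hand, so they are given by identifier or by their rank in KO 16 h change, without gene names or sequences.

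In the 3 WT libraries the set described an induction that was over by 16 h. The WT mock levels ran from 0.298 through a median of 11.0 to 87.5. At 3 h they ran from 2.36 through 31.7 to 242, and at 16 h from 0.388 through 9.86 to 43.8. By the rule, no identifier could have a higher level in WT at 16 h than at 3 h. At 16 h, 51, or 56.7%, were below their WT mock level. That share was 47% over the 2895 and 46.4% over the 261 identifiers induced at 3 h in all 3 lines. The median WT change was 1.29 at 3 h and -0.07 at 16 h, beside 0.56 and 0.06 over the 2895 identifiers.

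In KO the same identifiers were, by the rule, still above mock at 16 h. The KO mock levels ran from 0.116 through a median of 6.53 to 51.0, the 3 h levels from 1.66 through 21.6 to 137, and the 16 h levels from 0.868 through 23.3 to 119. In 57 of the 90, or 63.3%, the KO level was higher at 16 h than at 3 h, the share being 63.5% over the 2895 and 39.5% over the 261. The median KO change was 1.39 at 3 h and 1.57 at 16 h, beside 0.27 and 0.53 over the 2895 identifiers. These contrasts chose the set: a KO change of 1 or more at 16 h was met by 25.6% of the 2895, a WT change under 0.5 by 72%, and the whole rule by 3.11%. Changes of 0.8 or more at 3 h were held by 34.6% of them in WT, 18.7% in KO and 21.2% in rescue. Of the 261, 56.3% met the KO limit at 16 h, 68.2% the WT limit and 34.5% the whole rule.

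The limits of the rule fell in a continuous range of values. The member nearest the KO limit had a 16 h change of 1.003, and the nearest identifier outside it 0.971. For the WT limit the neighbours were 0.49 inside and 0.51 outside, and for the lowest 3 h change 0.80 and 0.79. A further 88 identifiers missed the rule by the KO limit alone, 57 by the WT limit alone and 333 by a 3 h limit alone. With WT and KO exchanged in the same rule, 3 identifiers qualified in place of 90. A 16 h change of 1 or more was also rarer in WT over all identifiers. It was held by 10.7% of the 2895 in WT and 25.6% in KO, and by 17.2% and 56.3% of the 261. With each library scaled by its median and identifiers chosen again, 2 qualified in place of 25.

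**Figure D1:**
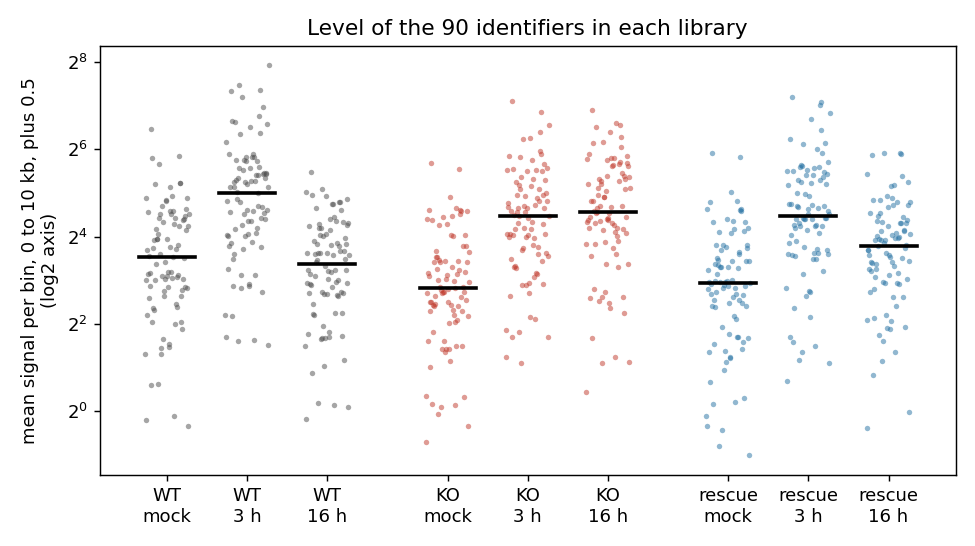
Mean signal per bin from 0 to 10 kb, plus 0.5 (log2 axis), of the 90 identifiers (points) in the 9 libraries, with black lines at the medians. Before the 0.5 is added, the WT median at 16 h is 9.86, that of KO 23.3 and that of rescue 13.4.

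The rescue line at 16 h, the one library left out of the choice, lay between the other lines. Its levels ran from 0.266 through a median of 13.4 to 60.0, against a rescue mock range of 0 through 7.19 to 59.4 and a 3 h range of 1.12 through 21.9 to 147. The median rescue change at 16 h was 0.77, with quartiles of 0.35 and 1.14 and a range from -0.31 to 3.01. Over the 2895 identifiers the median rescue change was 0.60, so the set stood 0.17 above that background in rescue, 1.04 above it in KO and 0.14 below it in WT. The rescue mock library entered the rule through the 3 h change, so the change from mock is not wholly independent of the choice.

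The 16 h change in rescue was lower than in KO for 80 of the 90 identifiers, or 88.9%, beside 43.4% of the 2895 and 64% of the 261 induced at 3 h. It was higher than in WT for 85, beside 77.9% and 84.7%. It lay between the WT and KO values for 75 identifiers, or 83.3%, beside 43.8% and 58.6%, and was below both for 5 and above both for 10. Because members were taken for a high KO and a low WT value, a position between them is partly set by the choice. The rescue change was nearer to WT than to KO in 43 of the 90, or 47.8%, beside 36.8% of the 2895 and 41.8% of the 261. With each library scaled by the median of its levels, it was nearer to WT in 61 of the 90. No share of the 2895 or of the 261 is given under this scaling, so that count has no background beside it.

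By the same limits that chose the set, rescue was mixed. In 28 identifiers, 31.1%, the rescue change was under 0.5, which is the WT pattern, and 13 of them were below 0. In 31, or 34.4%, it was 1 or more, which is the KO pattern, and the remaining 31 lay in between. The same shares were 44.1% under 0.5 and 26.5% at 1 or more over the 2895, and 36.4% and 38.7% over the 261. The shares among the 90 were close to those of the 261. A rescue change above 0 was held by 77 of the 90, beside 2267 of the 2895 and 214 of the 261. When each library was scaled instead by the median of its levels and the same 90 were kept, 67.8% were under 0.5 and 14.4% were at 1 or more, with a median of 0.24 against a background of 0.08. Background shares are not given under this scaling, and the shares of all identifiers may have moved too.

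**Figure D2:**
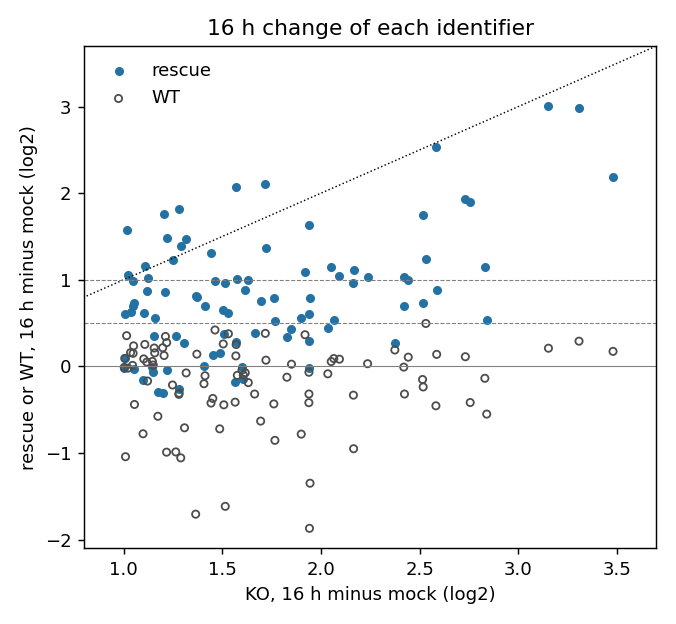
The 16 h change (log2, 16 h minus mock of the same line) of each of the 90 identifiers in rescue (filled) and WT (open) against that in KO, with dashed lines at 0.5 and 1 and a dotted line where both axes are equal. KO and WT values chose the identifiers, while the rescue values run from -0.31 to 3.01 and lie between the other lines in 75 of 90 (83.3%, beside 43.8% of the 2895).

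Set side by side at 16 h without the mock libraries, the typical rescue level was nearer WT than KO. The median fold of rescue over WT was 1.28 in the set, 1.25 over the 261 and 1.20 over the 2895. The median fold of rescue over KO was 0.531 in the set, against 0.75 and 0.961. Rescue was below KO in 84 identifiers, beside 54.7% of the 2895 and 76.6% of the 261, and KO reached 2 times the rescue level in 43, or 47.8%, beside 4.91% and 24.5%. Members were taken for a high KO change at 16 h, so the place of rescue below KO is partly set by the choice. Rescue was above WT in 71, or 78.9%, beside 70.5% and 71.6%, and reached 2 times the WT level in 12, or 13.3%, beside 10.5% and 18.4%.

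KO was above WT at 16 h in 88 of 90, beside 66.2% of the 2895 and 82.4% of the 261, with a median fold of 2.31 against 1.23 over the 2895, and reached 2 times the WT level in 63, beside 19.3% and 46%. In 79 identifiers, or 87.8%, the KO 16 h level exceeded every mock level and both other 16 h levels, beside 36.7% and 60.2%. In 7 it did not exceed the WT mock level, so the large KO change there was measured from a low KO mock level. These KO and WT levels were among the values that chose the set.

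The step from 3 h to 16 h needs no mock library either. The median fold of 16 h over 3 h was 0.361 in WT, 1.12 in KO and 0.606 in rescue, where the 2895 identifiers gave 0.708, 1.18 and 1.22. Rescue was higher at 16 h than at 3 h in 10 of the 90, or 11.1%, beside 63.5% of the 2895 and 19.9% of the 261. The 261 identifiers induced at 3 h gave 0.38, 0.88 and 0.59, so in WT and rescue this step was of similar size for the set and for all identifiers induced at 3 h. The 3 h levels were chosen to be high, which lowers such a fold in every line. For WT the rule also holds the 16 h level of every member below its 3 h level.

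**Figure D3:**
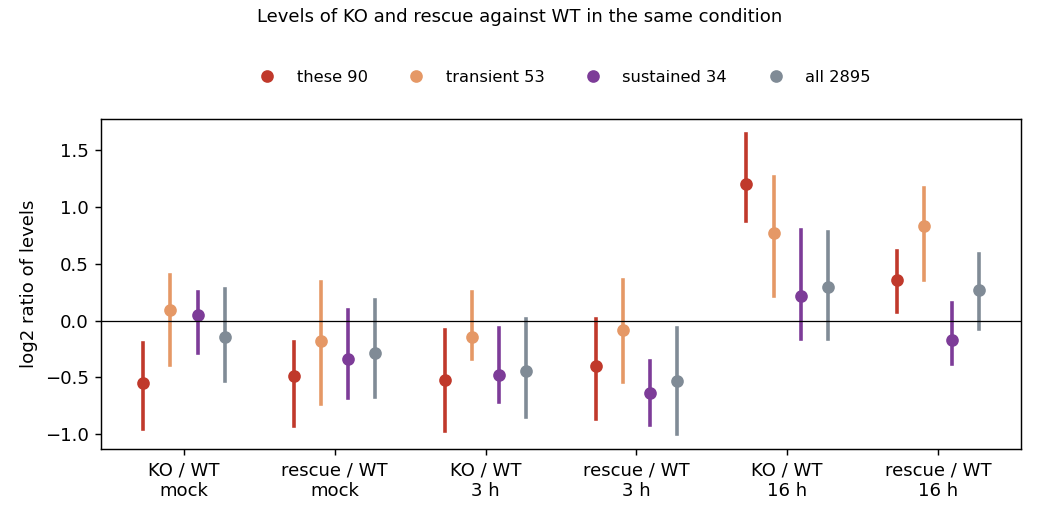
Log2 ratios of the levels of KO and rescue over WT at mock, 3 h and 16 h, for the 90 identifiers, the 53 transient, the 34 sustained and all 2895 identifiers, as medians (points) with quartiles (bars). The 16 h ratio of KO over WT has a median of 1.21 in the 90 and 0.30 over all, while rescue over WT is 0.36 and 0.27.

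Before UV both STK19-KO derived lines had less signal than WT at these starts. KO mock was below WT mock in 75 of 90, or 83.3%, beside 59% of the 2895 and 61.3% of the 261, with a median fold of 0.683 against 0.905. Rescue mock was also below WT mock in 75, beside 67.1% and 70.9%, with a median fold of 0.711 against 0.820. The KO mock level was under 0.5 times that of WT in 24, or 26.7%, beside 10.5% and 14.2%, and the rescue mock level in 23, or 25.6%, beside 16.2% and 20.7%. Rescue and KO mock levels were close to each other, with a median fold of 1.04. All 3 mock libraries were used by the rule, which favours a low KO mock value and, through the 3 h change, a low rescue mock value. The WT limit at 16 h favours a high WT mock value, although the 3 h limit does not. Both mock ratios are therefore partly set by the choice.

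The rescue mock level moved with the rescue result. In the 28 identifiers with a rescue change under 0.5, the median fold of rescue mock over WT mock was 0.938. It was 0.699 in the 31 between the limits and 0.506 in the 31 with a change of 1 or more. Rescue mock was under 0.5 times WT mock in 1, 7 and 15 identifiers of these classes. At 16 h the rescue over WT fold differed less, at medians of 1.22, 1.26 and 1.44. A class based on the change from mock shares its mock library with the mock ratio, and the part of the mock level in the result was not tested.

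The other identifiers induced at 3 h in all lines give a frame for these levels. A transient group of 53 had changes under 0.5 at 16 h in both WT and KO, and a sustained group of 34 had changes of 1 or more in both. The median rescue change at 16 h was 0.07 in the transient and 1.60 in the sustained group. The sustained group had low signal, with a median mock level of 1.98 against 9.39 in the set. In rescue mock, 14 of its 34 had under 50 steps, beside 9 of the 90. The KO over WT fold at 16 h was 1.71 in the transient and 1.16 in the sustained group, against 2.31 in the set. Rescue over WT was 1.78 and 0.888, against 1.28 in the set. With rescue in place of KO, the rule chose 44 of the 261 as low in WT and high in rescue, and 2 the other way round. Of the 44, 31 had a KO change of 1 or more and so were members of the set. With rescue in place of WT, it chose 29 of the 261 as low in rescue and high in KO, and 7 the other way round. Of the 29, 28 had a WT change under 0.5 and so were members too.

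Along the DNA the induced signal lay in the first 10 kb or so. At 3 h the median change from 1 to 5 kb was 1.47 for WT, 1.45 for KO and 1.64 for rescue. It was 0.58, 0.88 and 0.69 between 10 and 25 kb, and 0.03, 0.26 and 0.18 between 25 and 50 kb. Over the 2895, WT gave 0.70, 0.19 and -0.25 in these windows. KO gave 0.25, 0.05 and -0.13 there, and rescue 0.36, -0.01 and -0.28, so a decline with distance was present in both sets. In mock libraries, 25 to 50 kb from the start held a median of 0.279 of the signal per bin of the first 10 kb, close to the 0.280 of the 2895 and between 0.181 in the transient and 0.467 in the sustained group. The first kb held a median of 9.89% of the signal from 0 to 10 kb, less than the 13.8% over the 2895. In the median profile the highest 1-kb interval was from 1 to 2 kb in all 9 libraries.

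The KO change at 16 h was largest in the first kb, both in the set and over the 2895. The median KO change at 16 h was 1.77 in the first kb and 1.59 from 1 to 5 kb, then 1.39 up to 10 kb, 1.02 up to 25 kb and 0.47 up to 50 kb. The same windows gave 0.99, 0.51, 0.24, 0.14 and -0.06 over those of the 2895 with a mean signal of at least 1 there. The decline with distance was thus present in both. The set stood further above the 2895 from 1 to 10 kb than in the first kb. WT ran the other way over the first 25 kb, from -0.35 in the first kb through -0.17 and 0.02 to 0.45 in the window that ends at 25 kb. The 2895 so limited showed a larger such difference, from -0.43 through -0.01 and 0.43 to 0.62.

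The rescue line departed from both in its shape. Its median change at 16 h was 0.54 in the first kb and 0.90 from 1 to 5 kb, then 0.80, 0.45 and 0.20 in the windows ending at 10, 25 and 50 kb. The gap to KO was therefore widest in the first kb, where KO stood at 1.77. Over the 2895, rescue gave 0.39, 0.68 and 0.58 in the first 3 of these windows, and KO 0.99, 0.51 and 0.24. There too KO stood above rescue in the first kb, but not from 1 to 10 kb. The windows hold 85, 89, 86, 76 and 69 of the 90 identifiers, those with a mean signal of at least 1 there. Those within 10 kb overlap the window of the rule. In the 5 kb before the start, which the rule did not use, 52 identifiers had such signal, with median 16 h changes of -0.22 for WT, 1.11 for KO and 0.87 for rescue. Of the 2895, 1639 had such signal in this window and gave -0.30, 0.68 and 0.68. Of the 261, 167 had it and gave -0.30, 0.86 and 0.82, so WT was the lowest line in all 3 sets.

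**Figure D4:**
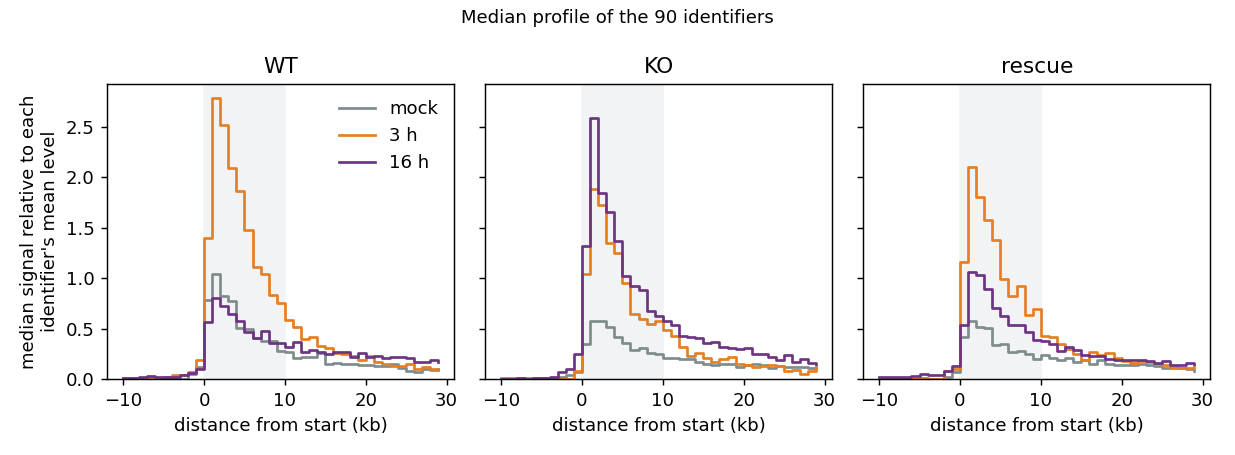
Median signal in 1-kb intervals around the start, divided by each identifier's mean level over the 9 libraries, for the 90 identifiers in WT, KO and rescue. In the interval after 1 kb, WT has 0.802 at 16 h against 1.04 at mock, KO 2.59 against 0.577, and rescue 1.07 against 0.578; the shaded 10 kb was used in the choice.

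Single identifiers show the range of rescue behaviour among the 45 with the higher mean level. The highest rescue change belonged to uc002ovd.1, whose mock levels were WT 3.60, KO 4.45 and rescue 2.20. Its 3 h levels were 13.1, 44.7 and 40.8, and its 16 h levels 4.24, 43.5 and 21.2. KO and rescue were both above WT at both times, with 16 h changes of 0.21 for WT, 3.15 for KO and 3.01 for rescue, although the rescue level at 16 h was about midway between the others.

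The second highest was uc002lic.3, with mock levels of 25.5, 21.4 and 13.5 (here and in what follows in the order WT, KO, rescue). Its 3 h levels were 146, 74.7 and 69.3 and its 16 h levels 33.4, 71.5 and 60.0, so WT was highest at 3 h and lowest at 16 h. The 16 h changes were 0.38, 1.72 and 2.11. Within it the lines differed by distance: in the first kb the 16 h signal was 47.3, 191 and 65.0, whereas from 1 to 5 kb it was 63.9, 111 and 114.

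The lowest rescue change belonged to uc002xgy.5, with mock levels of 18.5, 22.5 and 23.9, 3 h levels of 47.8, 61.9 and 86.3 and 16 h levels of 12.3, 51.5 and 19.3. The mock levels lay close together, and at 16 h only KO was above them. The 16 h changes were -0.58, 1.17 and -0.30.

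The other low one, uc001aja.5, had mock levels of 23.0, 23.8 and 27.4, 3 h levels of 58.8, 56.6 and 75.3, and 16 h levels of 18.5, 58.6 and 22.7. Here WT and KO had nearly equal levels at mock and 3 h, and KO alone was above mock at 16 h. The 16 h changes were -0.31, 1.28 and -0.26. With libraries scaled by their medians, the signs of the 16 h changes stayed as given for all 4 identifiers, but the KO change became 0.72 in uc002xgy.5 and 0.83 in uc001aja.5, under the limit of 1.

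**Figure D5:**
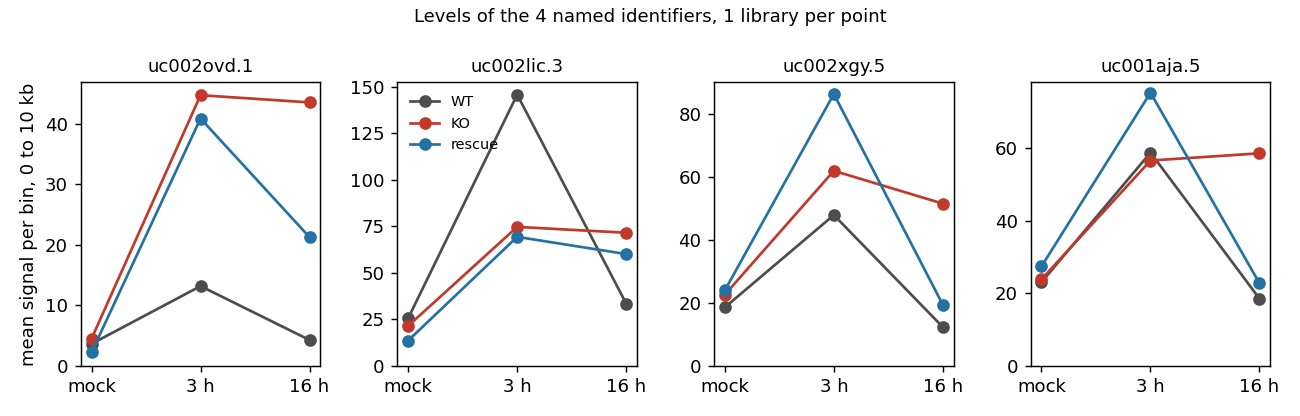
Mean signal per bin from 0 to 10 kb of 4 identifiers at mock, 3 h and 16 h in WT, KO and rescue, 1 library per point. At 16 h rescue lies between WT and KO in all 4, at 21.2 in uc002ovd.1 and near KO at 60.0 in uc002lic.3, and near WT at 19.3 in uc002xgy.5 and 22.7 in uc001aja.5.

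Among the identifiers with the largest KO change, 3 were singled out after their values were seen. Rank 1 had 16 h levels of 2.32, 13.7 and 3.77, but its rescue mock level of 0.435 rested on 16 steps and its rescue change of 2.19 rests on them. Rank 4 had 16 h levels of 24.6, 90.9 and 19.9, with rescue the lowest. Its mock levels were 36.3, 12.3 and 13.5, so that the rescue change was 0.54 although its 16 h level was below that of WT.

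Rank 7 shows how far the mock library can carry a change. Its 16 h levels were 30.0, 53.6 and 29.9, so WT and rescue were nearly equal. Its mock levels were 27.8, 7.64 and 7.45, and the 16 h changes were 0.11, 2.73 and 1.93. By its change from mock this identifier has the KO pattern in rescue, and by its 16 h level it has that of WT.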

How the data were processed

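The deposited signal is coverage in 200-bp bins, in 1001 columns spanning 100 kb on each side of a start. It covers 9 libraries and was scaled by the authors to similar totals. The low values, which alone were checked, were all whole multiples of 1 step per library, to within 0.1 of a step. Groups came from the sample titles. Tools named in the submitters' processing notes are HOMER 4.8.2, STAR 2.7.7a, R 4.0.5, Trim Galore 0.6.5 and FastQC 0.11.9, with the builds hg38 and GRCh38; their roles, and the use of strand, are not given in the sources. Windows of identifiers in opposite orientation held correlated signal in 82 pairs (r of at least 0.6, median 0.837), so transcripts on either strand may add to an identifier's level. A further 3 averaged tables were not used here.

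Levels, changes and shares were computed in Python 3.11.15 with numpy 2.4.6, pandas 2.3.3 and scipy 1.17.1, with a pseudocount of 0.5, which understates the change of low identifiers. The code was tested on simulated data. With 1 library per line and condition no test was made, and counts are set beside the same count over all 2895 identifiers. Median scaling set to 0 each library's median log2 difference from the mean over libraries, counting identifiers whose mean level reached 1. The identifiers named are the 2 highest and 2 lowest by rescue 16 h change among the 45 with the higher mean level. The members and lists were chosen with earlier results of these data known. Gene lists and cell type markers were not analysed here, since no identifier had a name.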

Additional observations from a re-analysis of the deposited data

Results flagged for a closer look

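In uc002xgy.5 the 16 h change was -0.30 in rescue and 1.17 in KO, and in uc001aja.5 it was -0.26 and 1.28. They are listed because the single libraries of both lines differ from mock in opposite directions. The rule fixed the KO values at 1 or more, and 13 of the 90 identifiers had a rescue change below 0, so these are examples and not exceptions. The rescue change was above 0 in 77 of the 90, beside 2267 of the 2895 and 214 of the 261. The median 16 h change of the 90 identifiers was 0.77 in rescue and -0.07 in WT, again with opposite signs, where the 2895 identifiers had 0.60 and 0.06 and the rule held WT under 0.5. None of these differences was tested, as there was 1 library per line and condition.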

How the results depend on the processing

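With each library scaled by its median, for the same 90 identifiers the share with a rescue change under 0.5 was 67.8%, the share at 1 or more 14.4% and the median 0.24. Both shares lack a background share under that scaling. Chosen again under that scaling, 25 identifiers met the rule, 21 of them among the 90, with 56% under 0.5, 24% at 1 or more and a median of 0.48. Of the 90, 44 failed the WT limit at 3 h under that scaling, and 37 failed the KO limit at 16 h. Levels over 0 to 25 kb gave 51 identifiers, a median of 0.59 and 6 with WT and KO exchanged, and over 0 to 5 kb the share at 1 or more was 46.2%. Without the KO 3 h library in the choice, 7 identifiers met the exchanged rule. The cause of these shifts was not tested. No value reversed. Over all alternatives the number of identifiers ran from 25 to 115 and the median rescue change from 0.24 to 0.93. The alternatives without the KO 3 h library and with at least 50 steps were chosen after seeing the data. No paired analysis was possible because each group has 1 library and the titles carry no replicate numbers.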

Other observations

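Neighbours of the 90 were found as identifiers whose deposited windows held a stretch of signal that correlated across libraries and bins with r of at least 0.6. Of the 90, 72 had at least 1 such neighbour and 18 had none. The same count is not given for other identifiers, so it has no background beside it. A further 81 identifiers beside 46 of the 90 were not members, had a 3 h signal of at least 2 and shared no level window with a member. Their median 16 h changes were -0.21 in WT, 0.82 in KO and 0.41 in rescue. A KO change of 1 or more was seen in 34 of the 81, or 42.0%, beside 25.6% of all 2895, and a WT change under 0.5 in 65, or 80.2%, beside 72%. The search matched differences between libraries, and the members were chosen for a high KO and a low WT change. These shares can therefore be partly set by the search, and the 2895 are not a like background for them. In the 25 neighbours within 50 kb the medians were -0.32, 0.75 and 0.29.

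The members at ranks 2 and 6 start 103.8 kb apart and were the only pair of members past that limit. Their 16 h levels were 3.39 and 2.93 in WT, 29.5 and 20.3 in KO and 14.6 and 9.10 in rescue. Downstream of uc002ovd.1, at 114000 and 139200 bp and in the same orientation, lay neighbours with 16 h changes of 3.36 and 4.27 for KO, 3.18 and 3.42 for rescue and 1.09 and 0.70 for WT.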
